A study of Mus musculus with 77 samples.

Results

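The NRF2 and glutathione response was followed through 10 genes of mouse liver: Nfe2l2, Keap1, Nqo1, Gclc, Gclm, Srxn1, Gss, Gsr, Prdx1 and Txn1. They were chosen by name, as a transcription factor, its inhibitor and enzymes of antioxidant defence, out of 25266 genes counted, and all 10 were among the 10696 genes with enough counts to be tested. RNA and ribosome-protected fragments (RPF, the stretches of mRNA covered by ribosomes, sequenced in ribosome profiling) were counted in the livers of 24 adult male C57BL/6J mice aged 12 to 24 weeks. The mice formed 8 groups of 3: Aco1-/- mice lacking iron regulatory protein IRP1 (allele Aco1tm1.1Mwh), Ireb2-/- mice lacking IRP2 (allele Ireb2tm1.2Mwh), and the wild-type controls of each line (Aco1+/+ and Ireb2+/+), each at ZT5 and at ZT12, that is, 5 and 12 h after lights on. All mice were entrained to 12 h of light and 12 h of dark for at least 8 days with food at will. Both deletions are whole-body. Each mouse gave 1 RNA and 1 RPF library, and translation efficiency (TE) was the log2 ratio of RPF to RNA of the same mouse.

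NRF2, encoded by Nfe2l2, is the transcription factor that turns on antioxidant and detoxification genes when electrophiles or oxidants modify its inhibitor KEAP1, which otherwise delivers it for degradation. Much of this control acts on NRF2 protein, which neither RNA nor RPF counts measure, so target genes are the usual readout. Its targets supply glutathione, the main small thiol of the liver cell, and serve the thioredoxin and peroxiredoxin system that removes peroxides. IRP1 and IRP2 bind iron-responsive elements in mRNAs and set ferritin and transferrin receptor production. Iron that is not held by ferritin can feed oxidant formation, so the comparison of each knockout with its control asked whether the response was raised.

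The genes are spread over 5 chromosomes (GRCm38.p6, RefSeq). Nfe2l2 (chr2:75675513-75704663), Srxn1 (chr2:152105524-152111376) and Gss (chr2:155563181-155592810) lie on chromosome 2, Gclm (chr3:122245487-122267215) on chromosome 3, and Prdx1 (chr4:116685599-116700000) and Txn1 (chr4:57943373-57956411) on chromosome 4. Gsr (chr8:33653238-33698162) and Nqo1 (chr8:107388225-107403205) lie on chromosome 8, and Keap1 (chr9:21229730-21239332) and Gclc (chr9:77754535-77794489) on chromosome 9. Prdx1 and Txn1 have near-identical processed copies in the genome, among which reads could have been split, so their counts carry that uncertainty.

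NRF2 binds, with small MAF proteins, to the antioxidant response element, whose core is written here as TGACNNNGC. The core was searched on both strands from 250 bases before to 50 bases after the annotated start, in RefSeq promoters (GRCm38.p6). It was found in 4 of the 8 member promoters in the table, and in 3369 of all 27025 promoters, or 12.5%. The stretches are shown, 29 bases each on the gene's strand with the core in capitals, because they locate the letters searched for. A match is a description of the sequence and not a binding site measured here.
Nfe2l2, chr2:75704885-75704913, minus strand, core on the gene's strand: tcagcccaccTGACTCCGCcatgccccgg
Gclm, chr3:122245413-122245441, plus strand, core on the opposite strand: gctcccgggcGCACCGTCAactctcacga
Srxn1, chr2:152105542-152105570, plus strand, core on the opposite strand: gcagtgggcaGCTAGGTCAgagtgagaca
Prdx1, chr4:116685456-116685484, plus strand, core on the opposite strand: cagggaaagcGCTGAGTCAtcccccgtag
The promoters of Keap1, Nqo1, Gss and Txn1 did not hold these letters in this window, and those of Gclc and Gsr are named only. Of clock-related motifs, the E-box CACGTG was in 0 of the 8 member promoters and 7.24% of all, and the D-box core TTATGTAA in 0 of 8 and 0.955% of all.

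The labels were checked on the deleted genes first. In Aco1-/- mice, Aco1 RPF was 74.8 to 123.2 CPM (the normalised read count, scaled to library size), against 347.1 to 591 CPM in Aco1+/+ mice, although the allele still makes mRNA (RNA 114 to 215 CPM against 239 to 358 CPM). In Ireb2-/- mice, Ireb2 RPF was 32.5 to 41.2 CPM, against 62.3 to 81.4 CPM in Ireb2+/+ mice. Counts in coding sequence ranged from 852293 to 3993492 per RNA library and from 2448915 to 13439600 per RPF library. All 8 hepatocyte markers were tested and summed to 105600 to 171700 CPM in RNA, against 310 to 558 CPM for the 7 Kupffer cell markers and 1.91 to 103 CPM for the 4 of 6 erythroid markers tested. Of 7 lymphocyte and neutrophil markers, 4 were among the genes counted, and none of these had enough counts for a test. In whole liver, fewer cells of a type and less RNA per cell cannot be told apart. The replicates were separate mice, so the spread is between animals. An exact permutation test of 3 mice against 3 cannot give a p below 0.1, so single genes were tested in the fit over all genes. Groups without overlap reach only that value, so non-overlap is given below as a description of the mice.

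No member passed the test between knockout and control in either line. Over 4 knockout comparisons and 10 genes, edgeR called 0 of 40 tests in RNA, 0 of 40 in RPF and 0 of 40 in TE at an adjusted p of 0.05, and DESeq2 also called 0 in each. In RNA the share of all genes called was 0% in Aco1 mice at ZT5, 0.00935% in Aco1 mice at ZT12, 0.00935% in Ireb2 mice at ZT5 and 0.0187% in Ireb2 mice at ZT12. In RPF these shares were 0.00935%, 0.299%, 0.0654% and 0.028%, and in TE 0.00935%, 0.0935%, 0.00935% and 0%. With so few genes of any kind called, 0 of 10 members does not set them apart.

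At an unadjusted p of 0.05, 5 of 40 member tests passed in RNA, 6 in RPF and 1 in TE. In RNA, 3, 1, 1 and 0 of the 10 members passed in the same order of comparisons, against 3.73%, 7.66%, 5.64% and 4.21% of all genes. In RPF, 2, 2, 1 and 1 members passed, against 2.79%, 12.7%, 7.64% and 7.62% of all genes. In TE, 0, 1, 0 and 0 members passed, against 2.54%, 6.71%, 7.01% and 3.56%. Knockout minus control ranged from -0.49 to 0.62 log2 in RNA, from -0.86 to 0.59 in RPF and from -0.54 to 0.44 in TE. The 95% interval lay within 1 log2 unit either way in 36 of 40 RNA tests, 38 of 40 RPF tests and 35 of 40 TE tests. A change of 2-fold or more was therefore outside the interval in most of these tests. The members were higher in the knockout in 24 of 40 RNA tests and in 20 of 40 RPF tests. Knockout and control did not overlap in 5 of 40 RNA tests, 7 of 40 RPF tests and 3 of 40 TE tests. Mice that do not differ separate in this way with a probability of 0.1. The share over all genes is not given here.

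**Figure D1:**
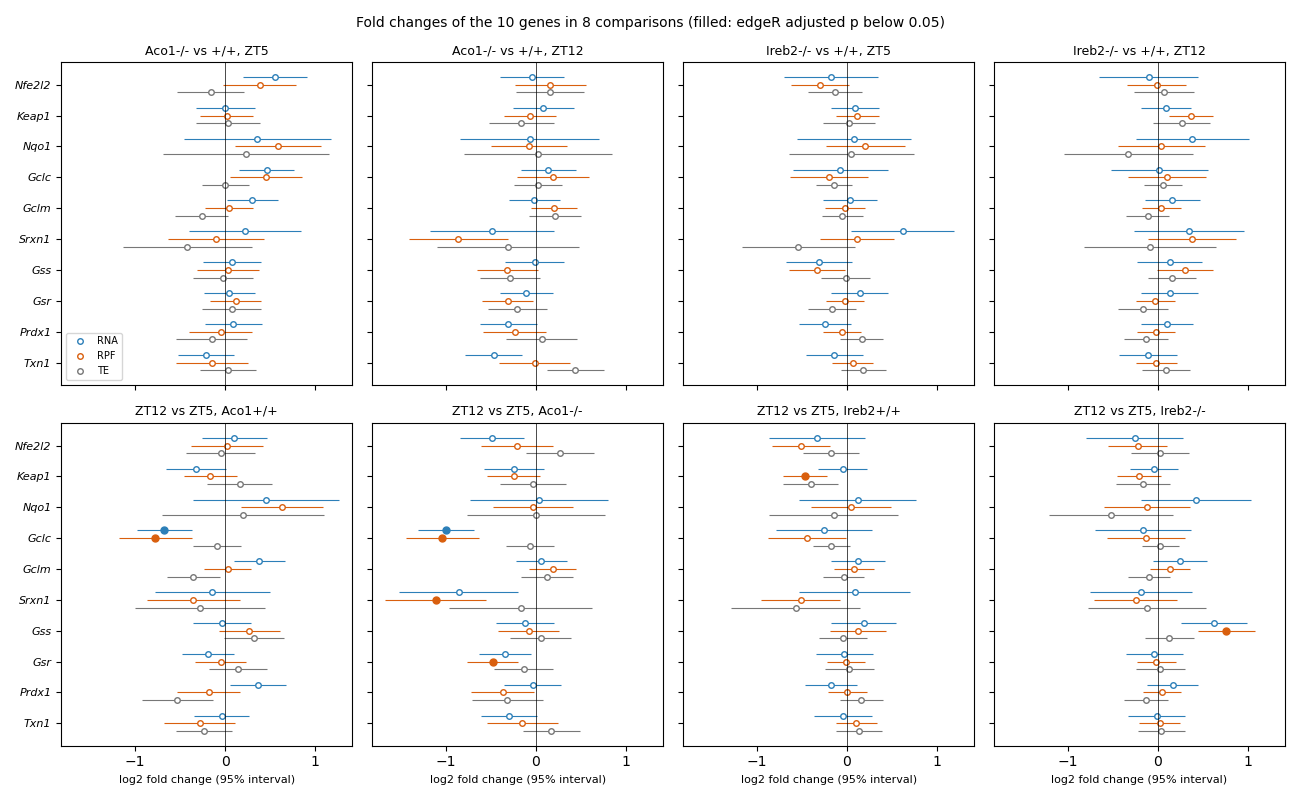
Log2 fold changes of the 10 members with 95% intervals for each knockout against its control and for ZT12 against ZT5, in RNA, RPF and TE, with filled points for an adjusted p below 0.05. All knockout points are open, while filled points appear in the ZT12 against ZT5 panels for Gclc, Srxn1, Gsr, Keap1 and Gss.

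For the regulators, Nfe2l2 RNA in Aco1+/+ mice at ZT5 was 49.6, 45.3 and 58.9 CPM (51.3 ± 6.96 SD, n = 3), and in Aco1-/- mice 79.4, 62.8 and 81.6 CPM (74.6 ± 10.3 SD, n = 3). All 3 knockout values lay above all 3 control values. The log2 difference was 0.55 with a standard error (SE) of 0.17 and an edgeR adjusted p of 1 (unadjusted 0.00329), so the difference did not pass, and it was 0.34 log2 when only the first sequencing run of each library was counted (the first run alone). In RPF the Nfe2l2 groups overlapped, with 62.0 to 94.6 CPM in controls and 77.6 to 123.8 CPM in knockouts. At ZT12 Nfe2l2 RNA was 43.1 to 61.9 CPM in Aco1+/+ and 43.8 to 64.3 CPM in Aco1-/- mice, which overlapped.

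Keap1, the inhibitor, held the smallest p in Ireb2 mice at ZT12, in RPF. The values were 37.5, 47.6 and 38.2 CPM in Ireb2+/+ mice and 56.5, 52.9 and 49.6 CPM in Ireb2-/- mice. The groups did not overlap, and the log2 difference was 0.37 (SE 0.12, edgeR adjusted p 0.418). Keap1 RNA in the same mice was 58.2 to 61.5 and 58.3 to 68.1 CPM, which overlapped.

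The enzymes of glutathione synthesis are Gclc and Gclm, the catalytic and modifier subunits of glutamate-cysteine ligase, which makes the rate-limiting step, and Gss, glutathione synthetase. In Aco1 mice at ZT5, Gclc RNA was 529, 370 and 496 CPM in controls and 637, 578 and 701 CPM in knockouts. These groups did not overlap (log2 difference 0.46, SE 0.15, edgeR adjusted p 1), nor did those of Gclm RNA, at 107.6, 101 and 120 against 132.4, 129 and 142 CPM (log2 difference 0.30, SE 0.14, edgeR adjusted p 1). Gclc RPF followed with 0.45 log2 (SE 0.19, edgeR adjusted p 1), whereas Gclm RPF differed by 0.04 log2 with overlapping groups. The Gclm TE difference was -0.26 log2 (SE 0.15, edgeR adjusted p 1), and -0.097 log2 when the deposited counts of all transcript regions were summed (all count columns). In Ireb2 mice at ZT5, Gss RPF was 96.7, 121.9 and 121.7 CPM in controls and 96.0, 71.7 and 103 CPM in knockouts, which overlapped (log2 difference -0.33, SE 0.15, edgeR adjusted p 0.626). Without knockout mouse 2 at ZT5 the Gss difference was -0.19 log2.

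Nqo1, a quinone reductase and a standard NRF2 reporter gene, was counted at low depth, with 2.04 to 9.17 CPM in RNA and 5.46 to 13.8 CPM in RPF over the 24 mice. In Aco1 mice at ZT5 its RPF was 7.90, 6.68 and 5.46 CPM in controls and 12.3, 10.3 and 8.07 CPM in knockouts, with no overlap (log2 difference 0.59, SE 0.23, edgeR adjusted p 1). At ZT12 the same contrast gave -0.08 log2 with overlapping groups. In Ireb2 mice at ZT12, Nqo1 RNA gave 0.38 log2 (SE 0.31, edgeR adjusted p 1).

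Srxn1, sulfiredoxin, restores over-oxidised peroxiredoxins, and Gsr, glutathione reductase, regenerates reduced glutathione. Srxn1 RPF in Aco1 mice at ZT12 was 13.8, 7.84 and 10.1 CPM in controls and 6.27, 6.41 and 4.70 CPM in knockouts. All knockout values were below all control values, and the difference of -0.86 log2 did not pass (SE 0.26, edgeR adjusted p 0.175). Gsr RPF was also lower in each of these knockouts, at 72.4, 70.9 and 81.5 CPM against 94.3, 93.3 and 92.1 CPM (log2 difference -0.32, SE 0.13, edgeR adjusted p 0.334). In Ireb2 mice at ZT5, the Srxn1 RNA difference was 0.62 log2 (SE 0.28, edgeR adjusted p 0.837), with overlapping groups, and 0.0027 log2 with the first run alone. Srxn1 TE gave -0.54 log2 (SE 0.31, edgeR adjusted p 0.748), but 0.43 log2 with the first run alone and -0.75 to -0.32 log2 without single mice.

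Prdx1 is an abundant peroxide-reducing peroxiredoxin, and Txn1 is the cytosolic thioredoxin that reduces it. Txn1 lies 17.7 Mb from Aco1, and alleles of the strain in which a gene was targeted can stay linked to it over such distances. Txn1 RNA at ZT12 was 141, 114 and 119 CPM in Aco1+/+ and 94.6, 95.2 and 80.6 CPM in Aco1-/- mice. All knockout values were lower (log2 difference -0.47, SE 0.15, edgeR adjusted p 0.472). RPF did not follow, at 303, 320 and 306 CPM against 333, 267 and 319 CPM. TE was accordingly 1.11, 1.49 and 1.36 in controls and 1.81, 1.49 and 1.99 in knockouts, a difference of 0.44 log2 (SE 0.15, edgeR adjusted p 0.489).

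**Figure D2:**
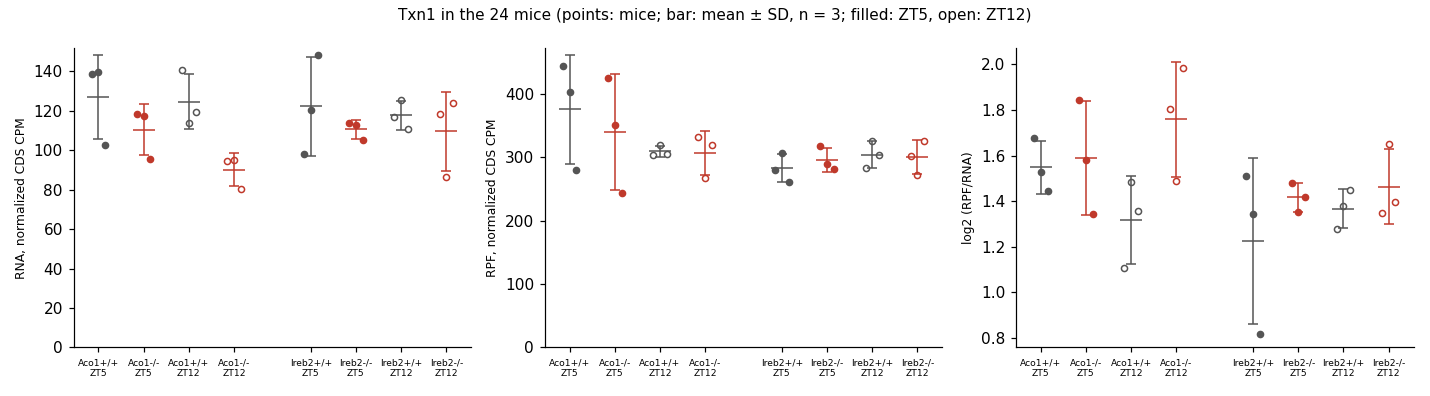
Txn1 RNA and RPF (normalised CPM) and log2 TE for each of the 24 mice, with mean ± SD (n = 3) per group. At ZT12 the 3 Aco1-/- mice lay below the 3 Aco1+/+ mice in RNA, while their RPF values overlapped.

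Within 20 Mb of Aco1, 136 genes were tested and 0 called in RNA, RPF or TE by edgeR. In RNA at ZT12, 7.35% of them passed an unadjusted p of 0.05, against 7.61% of genes on other chromosomes, and in RPF 13.2% against 12.6%. In TE at ZT12 the shares were 7.35% and 6.58%. Prdx1, on the same chromosome but 76.5 Mb away, and Gclc and Keap1, 22.8 and 33.6 Mb from Ireb2, were outside that window. The part of linked alleles in the Txn1 values was not tested.

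The direct tests of whether the knockout effect changed with time, or differed between lines, also called 0 members in RNA, RPF and TE by edgeR and by DESeq2. For the change with time, all-gene shares called were 0% in both lines in RNA and in RPF, and 0.028% and 0% in TE (Aco1, then Ireb2). At an unadjusted p of 0.05, 1 and 0 members passed in RNA, against 5.87% and 3.86% of all genes. In RPF 2 and 1 members passed, against 5.52% and 3.98%, and in TE 1 and 0, against 4.75% and 5.25%. The smallest p belonged to Gss RPF in the Ireb2 line, whose effect was 0.64 log2 higher at ZT12 than at ZT5 (SE 0.21, unadjusted p 0.00717, edgeR adjusted p 1). In the Aco1 line Nfe2l2 RNA gave -0.60 log2 (SE 0.25, edgeR adjusted p 0.836), Gsr RPF -0.43 log2 (SE 0.19, edgeR adjusted p 0.881) and Gclm TE 0.47 log2 (SE 0.20, edgeR adjusted p 0.993), the last 0.27 log2 with the first run alone.

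For the Aco1 effect minus the Ireb2 effect, all-gene shares called were 0% at ZT5 and 0% at ZT12 in RNA, 0.0187% and 0.0841% in RPF, and 0.0187% and 0.0374% in TE. At an unadjusted p of 0.05, 1 and 0 members passed in RNA, against 4.16% and 4.99% of all genes. In RPF 2 and 3 passed, against 3.97% and 10.8%, and in TE 0 and 1, against 3.9% and 5.72%. The smallest p was that of Srxn1 RPF at ZT12, -1.24 log2 (SE 0.36, edgeR adjusted p 0.195). Nfe2l2 at ZT5 gave 0.73 log2 in RNA (SE 0.31, edgeR adjusted p 1) and 0.68 log2 in RPF (SE 0.26, edgeR adjusted p 1). The Nfe2l2 RNA value was 0.43 log2 without Ireb2+/+ mouse 3 at ZT5.

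Between ZT5 and ZT12, edgeR called 2 of 40 member tests in RNA, both for Gclc and both lower at ZT12, and 6 of 40 in RPF, of which 5 were lower and 1 higher. The share of all genes called in RNA was 7.05% in Aco1+/+, 5.15% in Aco1-/-, 2.29% in Ireb2+/+ and 2.77% in Ireb2-/- mice. In RPF the shares were 6.64%, 12.1%, 7.53% and 5.73%. In the same order 1, 1, 0 and 0 of the 10 members were called in RNA and 1, 3, 1 and 1 in RPF, where a single member is already 10% of them. DESeq2 also called 2 in RNA and 6 in RPF.

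Gclc fell at ZT12 in both genotypes of the Aco1 line. In Aco1+/+ mice its RNA was 529, 370 and 496 CPM at ZT5 and 274, 327 and 269 CPM at ZT12, a log2 change of -0.68 (SE 0.15, edgeR adjusted p 0.0034). In Aco1-/- mice it went from 637, 578 and 701 CPM to 330, 270 and 359 CPM, a log2 change of -0.999 (SE 0.15, edgeR adjusted p 3.56e-05). In both genotypes every ZT12 mouse was below every ZT5 mouse. RPF fell alongside, from 469, 298 and 405 to 225, 257 and 204 CPM in Aco1+/+ mice (log2 change -0.77, SE 0.19, edgeR adjusted p 0.0189) and from 510, 524 and 569 to 234, 199 and 346 CPM in Aco1-/- mice (-1.04, SE 0.19, edgeR adjusted p 0.00205). TE moved by -0.09 log2 (SE 0.13) and -0.07 log2 (SE 0.13), so RNA and RPF changed by similar amounts. Without Aco1+/+ mouse 1 at ZT5 the Aco1+/+ RPF change was -0.62 log2 (edgeR adjusted p 0.127), and it also lost its call without mouse 1 (adjusted p 0.0764) or mouse 3 (0.0943) of Aco1+/+ at ZT12. In the Ireb2 line Gclc RPF gave -0.44 log2 in controls, without overlap (edgeR adjusted p 0.226), and -0.13 log2 in knockouts, with overlap (edgeR adjusted p 0.784). Whether the time change differed between lines was not tested.

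**Figure D3:**
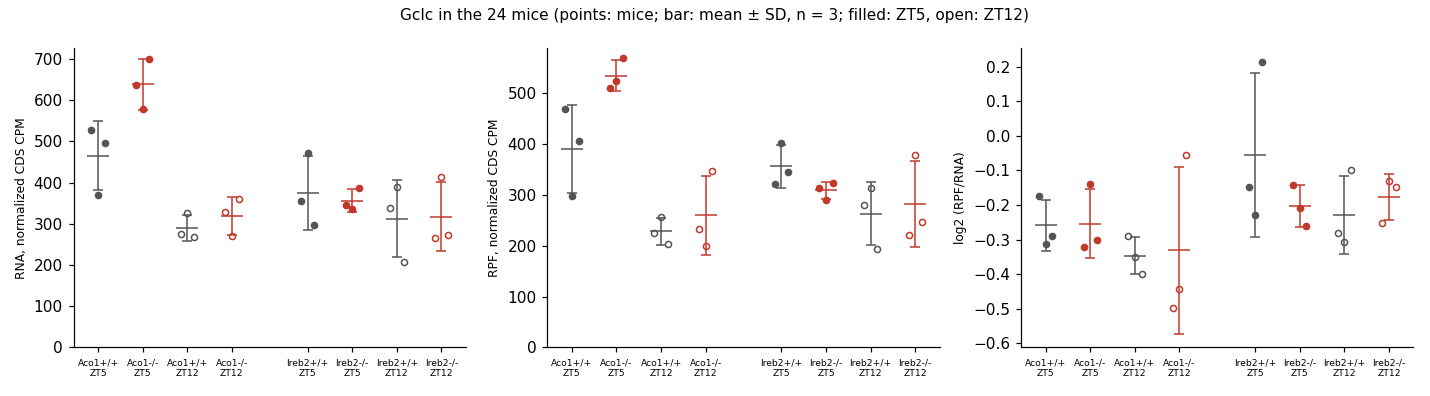
Gclc RNA and RPF (normalised CPM) and log2 TE for each of the 24 mice, with mean ± SD (n = 3) per group. In the Aco1 line every ZT12 mouse lay below every ZT5 mouse of its genotype in RNA and RPF, and TE did not separate the times.

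Single markers of cell types also differed between the times. Spp1, made by cholangiocytes, fell in RNA by 1.56 log2 in Aco1+/+ and 1.32 log2 in Aco1-/- mice and in RPF by 1.61 and 1.24 log2, and Acta2, of smooth muscle and activated stellate cells, fell by 3.51 log2 in Aco1+/+ RNA. In RPF Acta2 fell by 2.54 log2 in Aco1+/+ and by 1.69 log2 in Aco1-/- mice, Sox9 of cholangiocytes fell by 0.998 log2 in Aco1+/+ mice, and Clec4g of sinusoidal endothelium fell by 0.65 log2 in Aco1-/- mice. The hepatocyte genes called in RNA or RPF of this line, Cyp2e1, Serpina1a and Hnf4a, rose by 0.48 to 0.82 log2. The summed stellate markers, all 6 of which were tested, overlapped between the times in Aco1+/+ RNA, at 365.1 to 493.7 CPM at ZT5 and 443.1 to 489.1 CPM at ZT12. The summed cholangiocyte markers, 4 of 5 of which were tested, were 25.5 to 36.8 CPM at ZT5 and 11.7 to 12.6 CPM at ZT12 in Aco1+/+ RNA, against 122800 to 145900 and 145500 to 171400 CPM for hepatocyte markers. In Aco1-/- mice the sums that did not overlap were those of hepatocyte markers in RPF, at 167600 to 211600 against 223100 to 231600 CPM, and of stellate markers in RNA, at 351.3 to 403.6 against 403.9 to 445.6 CPM. Both sums were higher at ZT12, so the stellate sum went the other way from Acta2. The 6 endothelial markers, which include Clec4g, overlapped in Aco1-/- RPF, at 453.3 to 526.5 against 427.8 to 522.4 CPM. The part of these markers in the member results was not tested.

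Srxn1 and Gsr RPF fell between ZT5 and ZT12 in Aco1-/- mice. Srxn1 went from 16.4, 9.15 and 11.1 to 6.27, 6.41 and 4.70 CPM (log2 change -1.11, SE 0.27, edgeR adjusted p 0.011), and Gsr from 113, 99.8 and 101 to 72.4, 70.9 and 81.5 CPM (-0.48, SE 0.13, edgeR adjusted p 0.025). In both, all ZT12 values lay below all ZT5 values, and in Aco1+/+ mice the changes were -0.35 and -0.05 log2 with overlapping groups. The Srxn1 call rested on knockout mouse 1 at ZT5, without which it was -0.80 log2 (edgeR adjusted p 0.131), and was also lost with the first run alone (0.125). The Gsr call was lost without that mouse (edgeR adjusted p 0.115) and without knockout mouse 1 (0.077) or mouse 2 (0.0879) at ZT12, as well as with the first run alone (0.08) and in a fit of only the 6 mice compared (0.0757).

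Keap1 RPF fell in Ireb2+/+ mice, from 58.3, 54.3 and 57.1 CPM at ZT5 to 37.5, 47.6 and 38.2 CPM at ZT12 (log2 change -0.47, SE 0.12, edgeR adjusted p 0.0171). Its RNA moved by -0.05 log2 with overlapping groups, and its TE gave -0.40 log2 (SE 0.15, edgeR adjusted p 0.363), with all 3 ZT12 values below all 3 ZT5 values. The RPF call was lost without Ireb2+/+ mouse 1 at ZT5 (edgeR adjusted p 0.0787) and without mouse 1 (0.0972) or mouse 3 (0.0743) at ZT12, and with the first run alone (0.0836). The Ireb2+/+ ZT12 mice are the same ones against which Keap1 RPF of the Ireb2-/- mice appeared higher, so both comparisons rest on those 3 mice. Likewise the low Srxn1 and Gsr RPF of the Aco1-/- ZT12 mice enter both their comparison with Aco1+/+ and that with ZT5.

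Gss RPF rose in Ireb2-/- mice, from 96.0, 71.7 and 103 CPM at ZT5 to 137, 185 and 136 CPM at ZT12 (log2 change 0.76, SE 0.15, edgeR adjusted p 0.00518). RNA in the same mice was 64.2, 47.5 and 70.5 CPM at ZT5 and at least 80.2 CPM in all 3 mice at ZT12, without overlap (log2 change 0.62, SE 0.18, edgeR adjusted p 0.0556). The RPF call held without each mouse in turn, at 0.60 to 0.87 log2. In the same mice summed hepatocyte markers were 169800 to 213600 CPM in RPF at ZT5 and 222100 to 253300 CPM at ZT12, cholangiocyte markers 27.4 to 53.1 and 15.8 to 23.6 CPM in RNA, and endothelial markers 450.7 to 532.4 and 382.4 to 408.4 CPM in RNA, none overlapping. Endothelial markers did not overlap in RPF either, at 527 to 578.3 and 491.7 to 512.2 CPM. In the other readout, hepatocyte markers overlapped (RNA, 139700 to 155900 and 151100 to 171700 CPM), as did cholangiocyte markers (RPF, 60.6 to 108.6 and 36.8 to 65.9 CPM). Of single marker genes, Epcam, of cholangiocytes, fell by 1.88 log2 in RPF (edgeR adjusted p 0.0376), and the part of these markers in the Gss values was not tested. Nfe2l2 RPF in Ireb2+/+ mice was just outside the threshold (log2 change -0.51, SE 0.15, edgeR adjusted p 0.0508), and its RNA gave -0.33 log2 (SE 0.25, edgeR adjusted p 0.588), which was -0.03 log2 without mouse 3 at ZT5 and -0.54 without mouse 2 at ZT5.

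TE gave 0 calls of 40 between the times by edgeR and 0 by DESeq2. The share of all genes called was 0.0187% in Aco1+/+, 0.15% in Aco1-/-, 0.533% in Ireb2+/+ and 0.00935% in Ireb2-/- mice. At an unadjusted p of 0.05, 2, 0, 1 and 0 members passed, against 7.49%, 8.05%, 8.22% and 4.52% of all genes. Prdx1 TE in Aco1+/+ mice was 1.77, 1.71 and 1.49 at ZT5 and 0.83, 1.18 and 1.37 at ZT12, with no overlap (log2 change -0.53, SE 0.19, edgeR adjusted p 0.51), and -0.35 log2 with all count columns. In Aco1-/- mice it gave -0.32 log2 (SE 0.19, edgeR adjusted p 0.735), which was -0.06 log2 without mouse 2 at ZT12 and -0.60 without mouse 3 at ZT12, where it passed. In Ireb2-/- mice the smallest p was that of Nqo1 TE (-0.52 log2, SE 0.34, edgeR adjusted p 1), which was -0.33 log2 without Ireb2-/- mouse 1 at ZT5 and -0.26 with all count columns.

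**Figure D4:**
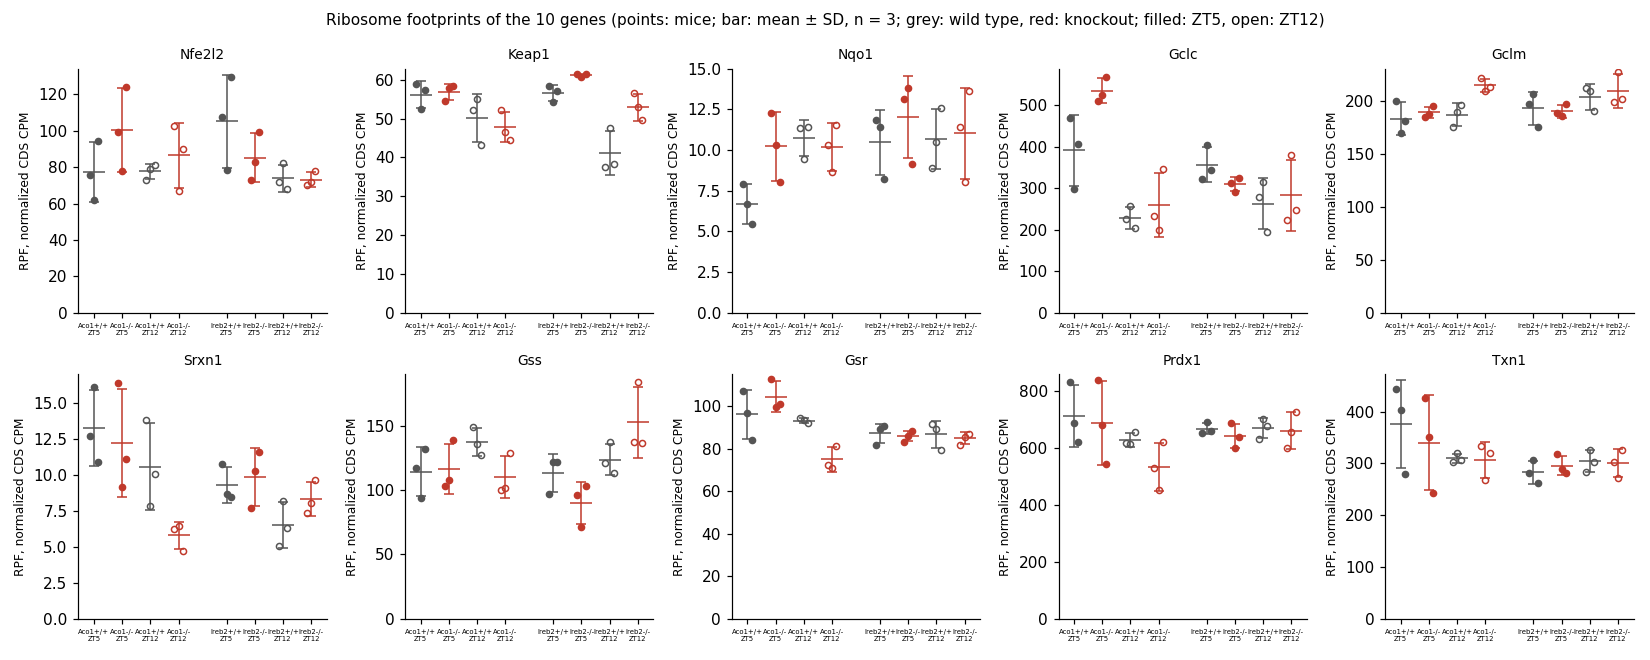
RPF in normalised CPM for each of the 10 members in the 8 groups, 1 point per mouse with mean ± SD (n = 3). Gclm stayed within a 1.35-fold range over the 24 mice, whereas Srxn1 spanned 3.498-fold and Gclc 2.92-fold.

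Over all 24 mice the members differed in how much they varied. Gclm RPF was 170 to 228 CPM, a highest-to-lowest ratio of 1.35, and Keap1, Gsr, Txn1 and Prdx1 had ratios of 1.64, 1.59, 1.83 and 1.86. Nfe2l2 spanned 2.09-fold, Nqo1 2.53-fold, Gss 2.58-fold, Gclc 2.92-fold and Srxn1 3.498-fold. Srxn1 and Nqo1 had the fewest reads, with 21 to 119 and 12 to 129 RPF counts per mouse. Levels of different genes were not compared, because they depend on coding length.

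TE, in which length cancels, ordered the members differently. The median over 24 mice was 1.58 log2 for Prdx1 and 1.45 for Txn1, above 98.4% and 97.6% of tested genes. Nqo1 (0.77), Nfe2l2 (0.62), Gss (0.61) and Gclm (0.60) were also above the median of all genes, 0.07. Srxn1 (0.09), Keap1 (-0.15), Gclc (-0.26) and Gsr (-0.37) were near or below it, and 32.1% of genes lay below Gsr. The neighbours Gss, Gclm and Nfe2l2 differed by less than their spread between mice (0.31 to 1.21 for Nfe2l2), as did Prdx1 and Txn1 (0.72 to 1.77 and 0.82 to 1.99).

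Footprints in the column read as the 5′ untranslated region made up 9.22% of RPF counts for Txn1, 8.01% for Gclc, 7.01% for Prdx1 and 5.13% for Keap1. The median was 1.95% over 7468 genes with at least 1000 counts. Gss had 0.751%, Nfe2l2 0.616%, Srxn1 0.258% and Gsr 0.0389%. The column's meaning was read from the counts, not from a header.

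Which members moved together from mouse to mouse was read from deviations from group means in RPF, over 24 mice and 45 pairs. Gclc and Gss had a Pearson r of 0.741 (permutation p 0.0004, adjusted over the pairs 0.01215) and a Spearman rho of 0.783 (permutation p 0.00017, adjusted 0.00765). Without the 2 most distant mice r was 0.658, it was 0.732 in the Aco1 line and 0.749 in the Ireb2 line, and in RNA it was 0.684. Prdx1 and Txn1 had r 0.843 (permutation p 0.00297, adjusted 0.04455) and rho 0.702 (permutation p 0.00577, adjusted 0.10305), and Nqo1 and Txn1 r 0.699 (permutation p 0.00054, adjusted 0.01215) and rho 0.639 (permutation p 0.00687, adjusted 0.10305). Without the 2 farthest mice these were 0.727 and 0.722, and in RNA 0.582 and -0.228. Without any one replicate number, 0 of the 45 pairs passed. The fewer mice left per group allow so few permutations that a pass was scarcely reachable, so this does not bear on the 3 pairs. Libraries share depth and composition, and 0.932% of all 57196860 gene pairs had a correlation of at least 0.699 in size.

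Among the 8 group means, the genes most like each member in RPF were, by Pearson r, Gphn (0.924) and Kank2 (0.882) for Nfe2l2, Dnajc28 (0.976) and Polr2g (0.967) for Keap1, and Asah2 (0.978) and Dcaf6 (0.94) for Nqo1. For Gclc they were AU022252 (0.979) and Tomm34 (0.966), for Gclm Lyst (0.978) and Garem1 (0.961), and for Srxn1 Cblc (0.991) and Rcc1l (0.9747). For Gss they were Ufd1 (0.938) and P4ha2 (0.924), for Gsr Cdk5 (0.967) and Sdf2 (0.964), for Prdx1 Os9 (0.988) and Pfdn1 (0.98), and for Txn1 Actr1b (0.965) and Agpat5 (0.962). These were the highest of 6311 genes over only 8 means, and the means share libraries and depth.

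The rest of the pathway was read from lists of 8 NRF2 regulators, 20 other NRF2 targets, 20 glutathione transferases, 16 genes of cysteine and glutathione supply (which hold Gclc, Gclm, Gss and Gsr), 9 peroxidases and superoxide dismutases, 17 peroxiredoxins, thioredoxins and glutaredoxins, and 16 genes of iron-linked oxidative stress and ferroptosis. Enough counts for a test were found for 8, 16, 18, 14, 8, 17 and 14 of them. Between genotypes edgeR called 1 gene in RPF and 1 in TE among all of these, and 0 in RNA. Both calls were in Aco1 mice at ZT12, where 0.299% of all genes were called in RPF and 0.0935% in TE. The median log2 difference of a list lay between -0.16 and 0.18 in RNA, between -0.22 and 0.28 in RPF and between -0.34 and 0.18 in TE over the 4 comparisons, against -0.01 to 0.03 for all genes.

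Hmox1, haem oxygenase 1, frees iron from haem and is induced through NRF2. At ZT5 its RNA was 1.76, 4.80 and 12.7 CPM in Aco1+/+ and 18.9, 14.6 and 12.4 CPM in Aco1-/- mice. The lowest knockout lay just below the highest control, and the difference was 1.39 log2 (SE 0.43, unadjusted p 0.00436, edgeR adjusted p 1). At ZT12 it was 0.75 log2 (SE 0.37), in RPF 0.86 (SE 0.42) and 0.82 log2 (SE 0.41) at the respective times, none of which passed. In Ireb2 mice at ZT5 and ZT12 it was -0.36 (SE 0.27) and 0.03 log2 (SE 0.28) in RNA and 0.22 (SE 0.19) and 0.52 log2 (SE 0.20, edgeR adjusted p 0.518) in RPF, and these did not pass either. Summed erythroid markers, which carry haem genes, were 36.1 to 72.0 CPM in Aco1+/+ and 7.30 to 20.9 CPM in Aco1-/- RNA at ZT5, and their part in these values was not tested. Txnrd1, thioredoxin reductase, ranged from -0.36 to 0.16 log2 in RNA, also not passing. Slc7a11, the cystine importer, had at most 1 read in any RNA library and 0 in any RPF library, so no difference was detectable at this depth.

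The gene called in RPF was Gsta2, a glutathione transferase, in Aco1 mice at ZT12. It was 5.17, 4.06 and 4.32 CPM in controls and 9.14, 11.3 and 12.5 CPM in knockouts, without overlap, and rose by 1.27 log2 (SE 0.27, edgeR adjusted p 0.0499). The call was kept in 3 of 12 fits that left out 1 mouse, and the adjusted p reached 0.199 without Aco1+/+ mouse 2 at ZT12. It was kept in 5 of 8 alternatives, and lost with a minimum count of 30, the first run alone and all count columns. Gsta2 and Gsta1 are near-identical and reads could be split between them, so which gene the reads came from is uncertain.

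The gene called in TE was Gpx1, the selenium-dependent glutathione peroxidase that uses glutathione to remove peroxide. Its TE at ZT12 was 0.57, 0.44 and 0.11 in Aco1+/+ and -0.39, -0.19 and -0.44 in Aco1-/- mice, a fall of 0.72 log2 (SE 0.13, edgeR adjusted p 0.00463). RPF was 2041, 1736 and 1590 CPM against 1223, 1078 and 1213 CPM, without overlap, while RNA overlapped, at 1372, 1279 and 1474 against 1606, 1232 and 1648 CPM. The call was lost without Aco1+/+ mouse 1 (adjusted p 0.159), Aco1+/+ mouse 2 (0.0938) or Aco1-/- mouse 1 (0.0505) at ZT12, and in fits that did not pair the libraries (1) or used limma on the TE values (0.686). Summed hepatocyte markers in RPF were 201100 to 222200 CPM in the Aco1+/+ and 223100 to 231600 CPM in the Aco1-/- mice at ZT12, without overlap, while in RNA they overlapped. The part of these markers in the Gpx1 and Gsta2 values was not tested.

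**Figure D5:**
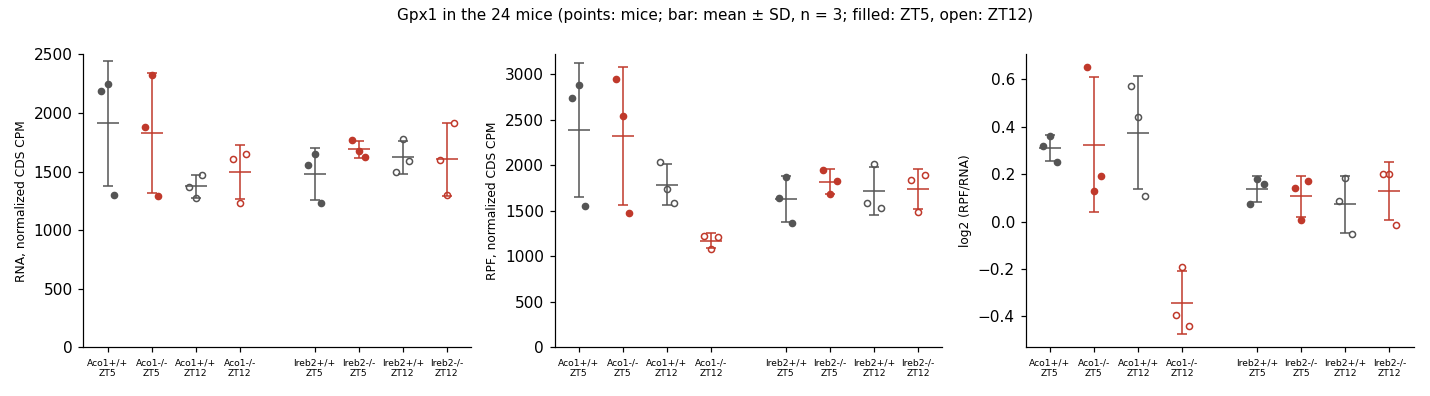
Gpx1 RNA and RPF (normalised CPM) and log2 TE for each of the 24 mice, with mean ± SD (n = 3) per group. At ZT12 all 3 Aco1-/- mice had a TE below 0 and an RPF below those of the 3 Aco1+/+ mice, while RNA overlapped.

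The calls of the wider lists between ZT5 and ZT12 follow by list, as log2 changes at edgeR adjusted p below 0.05. Of the regulators, Sqstm1, the p62 adaptor that binds KEAP1, fell in RNA by 0.64 log2 in Aco1+/+, 0.60 in Aco1-/-, 0.66 in Ireb2+/+ and 0.54 in Ireb2-/- mice, and in RPF in the first 3 of these (0.70, 0.62 and 0.61 log2). Both Aco1 calls in RNA and all 3 in RPF held under every alternative and without each mouse in turn. The Ireb2+/+ RNA call held in 10 of 12 fits without 1 mouse and was lost with only the 6 mice compared. The Ireb2-/- RNA call held in 6 of 12, with an edgeR adjusted p of up to 0.238, and was lost with TMM and with the first run alone. Rbx1, of the ubiquitin ligase that KEAP1 recruits, fell by 1.17 log2 in Aco1-/- RPF, and Mafk, a small MAF partner of NRF2, by 1.23 log2 in Ireb2-/- RPF, calls that held in 11 and 6 of 12 fits without 1 mouse. With the first run alone the Rbx1 call was lost.

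Of the cysteine and glutathione list, 2, 4, 2 and 3 of 14 genes were called lower in RNA in Aco1+/+, Aco1-/-, Ireb2+/+ and Ireb2-/- mice and 0 higher, beside 7.05%, 5.15%, 2.29% and 2.77% of all genes called. In RPF 4, 5, 3 and 2 were lower and 1, 1, 0 and 1 higher, beside 6.64%, 12.1%, 7.53% and 5.73%. The list includes the members Gclc, Gclm, Gss and Gsr, and its median RNA change was -0.20, -0.32, -0.14 and -0.10 log2, against -0.04, -0.05, -0.02 and -0.03 for all genes. The other lists are given only by their called genes, so this list is not ranked against them. Cbs, cystathionine beta-synthase of the transsulfuration route to cysteine, fell in RNA by 1.15, 1.20 and 0.89 log2 in the first 3 genotypes and in RPF by 0.85, 0.97, 0.95 and 0.57 log2 in all 4, of which the Ireb2-/- call held in 5 of 12 fits without 1 mouse and the others in all.

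Cth, cystathionine gamma-lyase, fell by 0.79 log2 in Ireb2+/+ and 0.67 in Ireb2-/- RNA and by 0.60, 0.75 and 0.65 in Aco1+/+, Ireb2+/+ and Ireb2-/- RPF. Cdo1, cysteine dioxygenase, fell by 0.58 log2 in Aco1-/- RNA, 0.51 in Ireb2-/- RNA and 0.70 in Aco1-/- RPF. Of the enzymes that break glutathione down, Ggct fell by 1.70 log2 in Aco1-/- RNA and 1.20 in RPF, Chac2 by 0.67 in Aco1+/+ RPF, and Lap3 by 0.43 in Ireb2-/- RNA and 0.39 in Ireb2+/+ RPF. The Ggct RNA call was lost with the first run alone (-0.81 log2, edgeR adjusted p 0.566), by DESeq2 (0.0677), and without Aco1-/- mouse 2 at ZT5 (0.244) or mouse 3 at ZT12 (0.213). The Ggct RPF call was lost with the first run alone (0.167) and without Aco1-/- mouse 1 at ZT5 (0.0825). The genes called higher were Gss, above, and Oplah, 5-oxoprolinase, which rose by 0.66 log2 in Aco1+/+ and 0.68 in Aco1-/- RPF. Of these calls, Cth in Ireb2+/+ RNA and Cdo1 in Aco1-/- RPF held under every alternative and without each mouse, while Oplah held in 3 and 7 of 12 fits without 1 mouse, Lap3 in 2 in RNA and 8 in RPF, and Chac2 in 9. Cdo1 held in 11 of 12 in Aco1-/- RNA and in 6 in Ireb2-/- RNA, with an edgeR adjusted p of up to 0.228, where it was also lost with TMM, all count columns and DESeq2. Cth held in 10 of 12 in Ireb2-/- RNA and in 8, 10 and 8 in RPF, and in Ireb2-/- RPF was lost with the replicate block and with only the 6 mice compared. The first run alone lost both Oplah calls, and TMM, the replicate block and the fit with no filter beyond 1 count lost the Lap3 RNA call. The Oplah call in Aco1+/+ RPF was also lost with all count columns and under both other count filters.

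Of the other NRF2 targets, Osgin1 fell by 1.48 log2 in Aco1+/+ RNA and 1.41 in RPF, in every alternative and without each mouse. Tkt, transketolase of the pentose phosphate pathway, rose by 0.51 log2 in Aco1-/- RNA and by 0.59, 0.60 and 0.41 in Aco1+/+, Aco1-/- and Ireb2+/+ RPF. The 3 RPF calls held in 6, 7 and 4 of 8 alternatives and in 7, 8 and 6 of 12 fits without 1 mouse, and the RNA call in 5 of each. Abcc3, a conjugate exporter, rose by 0.55 log2 in Aco1+/+ RNA and 0.64 in RPF. In Ireb2-/- RPF, G6pdx and Pgd, which supply NADPH, fell by 0.82 and 0.49 log2. The Abcc3 RNA call held in 7 of 12 fits without 1 mouse, and the Abcc3 RPF, G6pdx and Pgd calls in 8. The first run alone lost the Abcc3 RNA call, and DESeq2 and the fit of only the 6 mice compared lost that of G6pdx.

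Of the glutathione transferases, Gstt2 rose in Aco1+/+ RNA (0.91 log2) and RPF (1.08) and in Aco1-/- RPF (0.72). Called lower in the mu class were Gstm3 at -1.23 and Gstm6 at -0.66 log2 in Ireb2+/+ RNA, Gstm6 at -0.64 in Ireb2+/+ RPF, and Gstm4 at -0.69 in Ireb2-/- RNA and at -0.78, -0.62 and -0.70 in Aco1-/-, Ireb2+/+ and Ireb2-/- RPF. Gstp1 and Gstp2 fell in Aco1-/- RPF, at -0.58 and -2.35 log2. The Gstp1 RPF values of the times overlapped, and the call held in 5 of 12 fits without 1 mouse and was lost with all count columns (-0.33 log2, edgeR adjusted p 0.269) and with only the 6 mice compared (0.0909). Gstp1 TE fell by 0.70 log2 in these mice (edgeR adjusted p 0.00448), a call lost without pairing the libraries (0.938), by limma (0.388), with only the 6 mice compared (0.0727), and without Aco1-/- mouse 1 at ZT5 (0.116) or mouse 2 at ZT12 (0.0543). Gstt2 in Aco1+/+ RPF and Gstm6 held under every alternative and without each mouse, while Gstt2 in Aco1-/- RPF held in 3 of 12 and was lost with the first run alone, and in Aco1+/+ RNA held in 10 of 12. Gstm3 held in 10 of 12 and was lost with only the 6 mice compared. The Gstm4 RNA call held in 7 of 12 and was lost with all count columns, the replicate block and DESeq2, and the Gstm4 RPF calls held in 6, 9 and 10 of 12, the first of them lost with the first run alone. Reads of near-identical transferases, Gstp1 and Gstp2 or those of the mu class, could be split between genes, so which gene they came from is uncertain.

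Of the peroxide-removing enzymes, Gpx1 and Gpx4, a phospholipid peroxidase, fell in Aco1-/- RPF by 0.99 and 0.91 log2, each in 9 of 12 fits without 1 mouse. Gpx1 TE fell by 0.67 log2 in these mice, and lost its call without pairing the libraries, by limma and with only the 6 mice compared. The Gpx1 TE call held in 10 of 12 fits without 1 mouse, with an edgeR adjusted p of 0.471 without Aco1-/- mouse 1 at ZT5. Catalase, Cat, fell by 0.34 log2 in Ireb2+/+ and 0.31 in Ireb2-/- RPF. In Aco1-/- RPF, the peroxiredoxin Prdx5 fell by 0.49 log2 and Msrb1, a methionine sulfoxide reductase, by 0.70, while the mitochondrial thioredoxin Txn2 rose by 0.39 in Ireb2-/- RPF. These last calls held in 2 to 7 of 12 fits without 1 mouse. Of 8 alternatives, the Cat call held in 8 in Ireb2+/+ and 3 in Ireb2-/- mice, Msrb1 in 8, Prdx5 in 6 and Txn2 in 3.

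Of the iron and ferroptosis list, Acsl4, an acyl-CoA synthetase linked to ferroptosis, rose in Aco1+/+, Aco1-/- and Ireb2-/- mice, by 0.63, 0.57 and 0.66 log2 in RNA and 0.86, 0.88 and 0.66 in RPF, where it held in every fit. Aifm2, the ubiquinone reductase FSP1, rose by 0.77, 0.76 and 0.62 log2 in Aco1+/+, Ireb2+/+ and Ireb2-/- RPF. Without 1 mouse the Acsl4 RNA calls held in 9, 9 and 8 of 12 fits and the Aifm2 calls in 9, 12 and 8. With only the 6 mice compared the Acsl4 call in Aco1-/- RNA was lost, and with the first run alone that of Aifm2 in Aco1+/+ RPF. Fth1, the ferritin heavy chain, fell by 2.00 log2 in Aco1+/+ and 1.42 in Aco1-/- RPF, while Ncoa4, the ferritin cargo receptor, rose by 0.83 in Aco1-/- RPF. The Fth1 calls held in 11 and 7 of 12 fits without 1 mouse and the Ncoa4 call in 8. The Aco1-/- calls of both genes were lost with only the 6 mice compared, and that of Fth1 also with no filter beyond 1 count. Tfrc, transferrin receptor 1, rose by 2.17 log2 in Aco1-/- RPF and by 2.07 in Ireb2-/- RNA, in 9 and 4 of 12 fits without 1 mouse. The Tfrc RNA call was also lost with no filter beyond 1 count, the first run alone and all count columns. The Tfrc RPF change was 1.23 log2 without Aco1-/- mouse 1 at ZT12, and its call was lost without mouse 1 (edgeR adjusted p 0.128), mouse 2 (0.0742) or mouse 3 (0.0793) of Aco1-/- at ZT5 and with only the 6 mice compared (0.131). Of the metallothioneins, Mt1 rose by 1.71 log2 in Aco1-/- RNA and Mt2 by 1.70 in Ireb2+/+ and 2.41 in Ireb2-/- RPF. The Mt1 means were 1.85 CPM at ZT5 and 5.28 CPM at ZT12, and its call held in 9 of 12 fits without 1 mouse and was lost with the first run alone and by DESeq2. Each Mt2 call held in 11 of 12. Trib3, a pseudokinase of the stress response, fell in Ireb2-/- mice, at -2.35 log2 in RNA, in every fit, and -2.74 in RPF, in 7 of 12 without 1 mouse.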

How the data were processed

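Libraries of ribosome footprints and RNA from the same 24 livers were used. The authors removed adapters with cutadapt 3.5, filtered reads by size and quality, removed ribosomal and transfer RNA with Bowtie2, mapped the rest with STAR and deposited raw counts per gene and transcript region. Which counter was used, whether it used strand, and what each column holds are not given in the sources used here. The column holding 91.9 to 96.05% of RPF counts was read as coding sequence. Runs of a library were summed (77 runs, 48 libraries).

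Genes with at least 10 counts in enough libraries and a total of 15 were tested (10696) with robust edgeR 4.0.16 quasi-likelihood fits in R 4.3.3. Libraries were scaled by upper quartiles over all 48 (factors 0.7956 to 1.243), and log2 values used a prior count of 0.5. Each line and readout was fitted over its 4 groups, comparisons between lines over all 8, and TE as an RPF against RNA term with the mouse as a block. P-values were Benjamini-Hochberg adjusted over all tested genes. Pairs of members were tested by 100000 permutations within groups (scipy 1.17.1). Alternatives were TMM scaling, other count filters, the first run alone, all count columns, DESeq2 1.42.0, limma 3.58.1, unpaired libraries, a replicate block, only the 6 mice compared and leaving out each mouse. Fits were tested on simulated data.

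Values are given for all 10 members, with statistics where the adjusted p was below 0.05 or, in most comparisons, the unadjusted p was the smallest. Some whose groups did not overlap were added, chosen after their values were seen. Members with the smallest p but no statistics here were Keap1 TE in Ireb2 mice at ZT12, and Gss RNA and Prdx1 TE for the change with time in that line. Between lines they were Gsr TE at ZT5, and Prdx1 RNA and Gss TE at ZT12. None of these passed. Genes of the wider lists were named past 0.05, with Hmox1, Txnrd1 and Slc7a11, and 2 genes most like each member. The members and lists were chosen with earlier results of these data known. CPM per kilobase, planned for comparing genes, was not computed, as coding lengths were not used here. Gpx2, Trim16, Mgst2, Ggt1 and Ptgs2 were not analysed here.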

Additional observations from a re-analysis of the deposited data

Results flagged for a closer look

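Gpx1 translation efficiency at ZT12 differed between the lines by a direct test, with the Aco1 knockout effect 0.77 log2 units below the Ireb2 knockout effect (difference -0.773, SE 0.16, edgeR adjusted p 0.0244). In Aco1 mice log2 TE was 0.57, 0.44 and 0.11 in controls and -0.39, -0.19 and -0.44 in knockouts, while in Ireb2 mice it was 0.09, 0.18 and -0.05 in controls and 0.20, 0.20 and -0.01 in knockouts. The call was kept in 5 of 9 alternatives and in 17 of 24 fits that left out 1 mouse, where the difference ran from -0.91 to -0.67. It was lost without Aco1+/+ mouse 1 at ZT12, at an adjusted p of 0.339.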

How the results depend on the processing

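The count of members called between genotypes was 0 in RNA, RPF and TE under every alternative run and without each mouse in turn. Between ZT12 and ZT5 the counts were 2 to 3 in RNA under all alternatives and 2 to 3 without single mice. In RPF they were 3 with the first run alone and 5 to 7 otherwise, and 4 to 7 without single mice. In TE 1 member (Prdx1) was called with only the 6 mice compared, and 0 to 2 without single mice. Differences reversed for Gsr TE between lines at ZT5 (-0.021 with the first run alone), Srxn1 TE in Ireb2 mice at ZT5 (0.43, first run alone) and the Prdx1 TE interaction in the Ireb2 line (0.11 with all count columns). The causes were not tested. No pair of members passed in RNA libraries (0). None passed without any replicate number (0 to 0), where too few permutations remained for a pass to be likely. Deviations of same-numbered mice correlated at -0.146 to 0.269 (48 pairs), and in 1 of 16 comparisons, Ireb2 RPF between genotypes at ZT12, all 3 pairs were above 0.1 (0.133, 0.118 and 0.112). With the number as a replicate block 2 RNA, 6 RPF and 0 TE members were called between times and 0 between genotypes. Depth of the RNA libraries limits Nqo1 and Srxn1, with as few as 2 and 4 counts in a mouse.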
